A study of Mus musculus with 16 samples.

Results

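The genes for the subunits of the ionotropic glutamate receptors (AMPA, kainate and NMDA), for the metabotropic glutamate receptors and for the GABA-A receptors were examined for binding of Jarid2 and of its methylated form. Members were the protein-coding genes of the GENCODE annotation of mouse build NCBIM37 (mm9) whose symbols name such a subunit or receptor (Gria, Grik, Grin, Grm, Gabr), which gave 43 of 22367 genes, 24 for glutamate and 19 for GABA-A receptors. A gene was counted as bound where any part of a deposited peak lay within 5 kb of any of its annotated transcript starts, and genes without a peak stayed in every count.

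The series holds chromatin immunoprecipitation sequencing (ChIP-seq) from mouse embryonic stem cells (ESC) grown in serum with LIF and from embryoid bodies (EB), aggregates started in hanging drops and kept without LIF for 8 days. In the E14 ESC line, 1 library was made with an antibody to total Jarid2 and 1 with an antibody to Jarid2 dimethylated at K116 (Jarid2-K116me2). H3K27me3 was profiled in 12 libraries, 2 replicates each of ESC and EB from Jarid2 -/- cells (KO), from Jarid2 -/- cells rescued with a bacterial artificial chromosome (BAC) carrying Jarid2 (WT), and from Jarid2 -/- cells rescued with a BAC carrying Jarid2-K116A, in which that lysine is replaced by alanine. All 6 of these groups therefore lack the endogenous Jarid2, the WT group is a transgenic rescue and not the parental line, and the labels do not say how many clones each line stands for. The peak lists measure no Jarid2 RNA or protein, so they hold no check of the knockout itself.

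Jarid2 is a partner of the Polycomb complex PRC2, which silences genes by trimethylating lysine 27 of histone H3, and PRC2 can also methylate Jarid2. In stem cells this machinery sits mostly on CpG-rich starts of developmental and lineage genes that are not yet used. Ionotropic glutamate receptors carry fast excitation between neurons, and GABA-A receptors are chloride channels that carry fast inhibition. Both are built from subunits that neurons switch on as they mature. Metabotropic glutamate receptors signal through G proteins.

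The promoter sequences show the range of sequence among these genes. They show, for each class, a gene with the highest Jarid2 score. Beside it stands a gene of the same class without a peak, with a CpG content near the median of such genes. Each sequence is the 200 bases centred on the outermost 5′ start, from NCBIM37 in the direction of transcription, with every CpG in capitals. Grin2a (chr16:9994915-9995114, minus strand) holds 9 CpG in this stretch and Grik5 (chr7:25857289-25857488, minus strand), without a peak, holds 7. Grm8 (chr6:28085079-28085278, minus strand) holds 28 and Grm5 (chr7:94750852-94751051, plus strand), without a peak, holds 0. Grm8 shares its score with Grm4 and Grm6, and has the widest Jarid2 peak of these (4495 bp). The CpG observed to expected ratio over 1 kb around the outermost start was 0.7997 at Grm8, 0.9582 at Grm4 and 0.3896 at Grm6. The size of the contrast with Grm5 may therefore depend on which of these is shown. Grm5 is the only metabotropic gene without a peak. Gabra5 (chr7:64765280-64765479, minus strand) holds 23 and Gabrr3 (chr16:59407058-59407257, plus strand), without a peak, holds 2.
Grin2a: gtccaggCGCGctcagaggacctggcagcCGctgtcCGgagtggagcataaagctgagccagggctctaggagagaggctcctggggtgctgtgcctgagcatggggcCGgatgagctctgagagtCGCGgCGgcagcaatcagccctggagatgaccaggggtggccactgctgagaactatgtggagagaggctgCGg
Grik5: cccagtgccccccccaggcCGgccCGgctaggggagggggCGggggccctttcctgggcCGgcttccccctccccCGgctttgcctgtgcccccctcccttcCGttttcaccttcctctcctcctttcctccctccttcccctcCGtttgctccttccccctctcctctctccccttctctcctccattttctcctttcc
Grm8: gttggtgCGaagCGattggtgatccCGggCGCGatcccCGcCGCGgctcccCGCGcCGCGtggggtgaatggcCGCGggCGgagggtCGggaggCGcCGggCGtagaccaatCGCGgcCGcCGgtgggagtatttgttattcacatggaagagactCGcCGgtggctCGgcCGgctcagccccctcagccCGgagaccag
Grm5: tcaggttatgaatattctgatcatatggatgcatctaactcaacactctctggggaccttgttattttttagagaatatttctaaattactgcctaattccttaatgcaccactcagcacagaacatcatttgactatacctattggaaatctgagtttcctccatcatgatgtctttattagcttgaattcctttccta
Gabra5: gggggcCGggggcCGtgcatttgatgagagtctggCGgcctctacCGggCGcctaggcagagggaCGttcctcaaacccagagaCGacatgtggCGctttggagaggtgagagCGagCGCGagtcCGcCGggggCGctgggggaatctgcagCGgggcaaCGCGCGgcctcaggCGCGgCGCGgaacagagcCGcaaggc
Gabrr3: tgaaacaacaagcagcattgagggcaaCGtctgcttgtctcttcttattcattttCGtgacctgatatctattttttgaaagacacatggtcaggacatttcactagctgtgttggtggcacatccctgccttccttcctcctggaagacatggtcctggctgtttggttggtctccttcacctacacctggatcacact

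Jarid2 peaks lay at 26 of the 43 receptor genes (60.5%, 95% Wilson interval 45.6 to 73.6), where the share over all protein-coding genes was 16.6%. Jarid2-K116me2 peaks lay at 28 (65.1%, interval 50.2 to 77.6), against 14.7% of all genes. Both antibodies had a peak at 26 genes, against 14.5% of all genes, so that every receptor gene with a Jarid2 peak also had a K116me2 peak, which is 100% of the Jarid2 set and 26 of the 28 genes of the K116me2 set. Over all protein-coding genes with a Jarid2 peak, 87.3% also had a K116me2 peak, so this overlap was near the background. Potassium channel genes (symbols starting with Kcn) stood at a like level, with a Jarid2 peak at 60 of 96 (62.5%) and a K116me2 peak at 57, each of which also had a Jarid2 peak. With 1 library per antibody there is no replicate check, the genes are not replicates and the intervals cover counting only, so these shares are descriptions.

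The glutamate genes were bound more often than the GABA-A genes, at 18 of 24 (75%) against 8 of 19 (42.1%) for Jarid2, but the intervals overlapped (55.1 to 88.0 and 23.1 to 63.7). By family, Jarid2 peaks lay at 2 of 4 AMPA, 4 of 5 kainate and 5 of 7 NMDA genes, and at 0 of the 3 rho genes of the GABA-A class. The peak strength given below is the peak caller's score, which MACS writes as a multiple of the negative log10 of the p-value. It piles up at 3100, which 719 of 4992 Jarid2 peaks and 906 of 4502 K116me2 peaks hold exactly, so genes at 3100 cannot be ranked among themselves. A score also grows with sequencing depth, which was not adjusted for here, so that scores of the 2 antibodies are set side by side without a test.

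**Figure D1:**
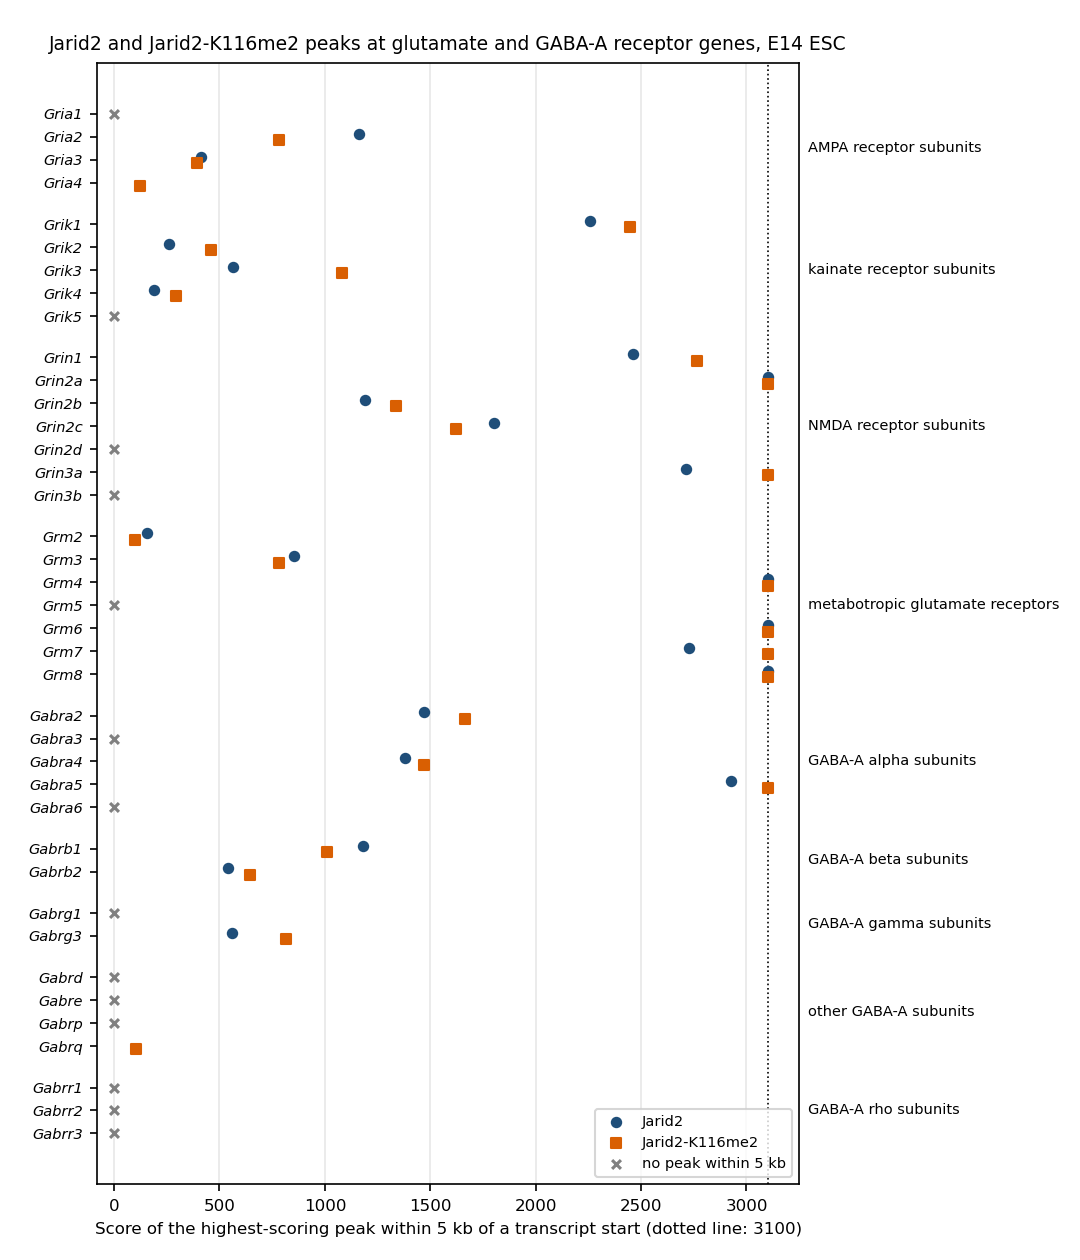
Score of the highest-scoring Jarid2 (circles) and Jarid2-K116me2 (squares) peak within 5 kb of a transcript start for 39 of the receptor genes, grouped by family, 1 E14 ESC library per antibody. Crosses at 0 mark the 14 of these genes without a peak of either antibody, and the dotted line marks 3100, which 4 genes reach with both antibodies.

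Among the AMPA receptor genes, which code for the channels of fast excitatory transmission, Gria2, whose edited subunit keeps calcium out of the channel, had the highest score (1162 for Jarid2, 784 for K116me2). Gria3 followed with 413 and 394. Gria4 had a K116me2 peak at a score of 123 (chr9:4795031-4795768) and no Jarid2 peak, and Gria1 had neither. The nearest Jarid2 peak lay 468992 bp from a start of Gria1.

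The kainate receptor genes Grik1, Grik2 and Grik3 code for subunits that form channels on their own. Grik1 had by far the highest scores of its family, 2260.0 for Jarid2 and 2448 for K116me2. Grik3 had 564 and 1080.1, and Grik2 had 263 and 461. Grik2 carried peaks of both antibodies at the outermost start and at an inner start, where the Jarid2 midpoint lay 5534 bp from the outermost start, and the inner peak had the higher score in both lists. Grik4 and Grik5 code for high-affinity subunits that need a partner, and of these Grik4 had a weak peak (189 and 293) and Grik5 had none.

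The NMDA receptor genes code for the coincidence detector of synaptic plasticity. Grin2a reached 3100 with both antibodies, with the widest Jarid2 peak of all receptor genes (5197 bp, chr16:9991687-9996883). Grin3a had 2711 and 3100, Grin2c had 1801 and 1622, and Grin2b had 1192 and 1338. No peak lay at Grin2d or Grin3b, whose nearest Jarid2 peaks were 31857 and 47995 bp away. The obligatory subunit gene Grin1 had scores of 2463 and 2767, but its peak (chr2:25144636-25147805) lay at the 3′ end of the gene, with its midpoint 28487 bp downstream of the outermost start. That peak covered the start of the neighbouring gene Lrrc26 and met the 5 kb rule through an internal non-coding transcript of Grin1. With the outermost start or coding transcripts alone, with peak midpoints or with a distance of 1 kb, Grin1 was not counted, and the totals became 25 for Jarid2 and 27 for K116me2.

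The metabotropic receptors signal through G proteins, and 3 of the 4 genes at 3100 with both antibodies were among theirs. Grm4, Grm6 and Grm8, 3 of the 4 group III receptors, which dampen transmitter release or, for Grm6, serve the bipolar cells of the retina, had these scores. The remaining group III gene, Grm7, had 2726 and 3100. The group II genes were lower, Grm3 at 855 and 785 and Grm2 at 155 and 101. The excitatory group I gene Grm5 had no peak, the nearest Jarid2 peak being 17558 bp from a start. Every group III gene thus scored above both group II genes with both antibodies.

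Among GABA-A alpha genes, whose subunits set the pharmacology of the receptor, Gabra5 had the highest scores (2926 and 3100). Gabra2 (1470.0 and 1665) and Gabra4 (1381 and 1469) were close to each other. Gabra3 and Gabra6 had no peak. The beta subunits are needed for assembly at the membrane, and peaks lay at Gabrb1 with 1179 and 1011 and at Gabrb2 with 540.0 and 647. Of the gamma genes, Gabrg3 had 561 and 816, while Gabrg1 had none. Gabrq had a K116me2 peak at 104 (chrX:70070358-70071168) without a Jarid2 peak. Gabrd, which makes receptors outside synapses, Gabre, Gabrp and the rho genes Gabrr1, Gabrr2 and Gabrr3, known from the retina, had none.

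GABA-A genes sit in clusters, and neighbours differed. In the chromosome 7 cluster Gabrg3 and Gabra5 were bound. In the chromosome 5 cluster Gabra2, Gabra4 and Gabrb1 were bound and Gabrg1 was not, its start lying 251970 bp from the nearest Jarid2 peak. In the chromosome 11 cluster Gabrb2 was bound and Gabra6 was not. The X cluster of Gabre, Gabra3 and Gabrq and the chromosome 4 pair Gabrr2 and Gabrr1 had no Jarid2 peak.

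Where both antibodies had a score below 3100 (19 genes), K116me2 was higher at 10 and Jarid2 at 9. The median log2 of the K116me2 to Jarid2 score was 0.09, running from -0.61 at Grm2 to 0.94 at Grik3, and over the 2333 such protein-coding genes it was 0.085, with K116me2 higher at 57.2%. The receptor genes therefore did not stand apart from all genes in this ratio. Jarid2 peaks were the wider in 20 of 22 genes with 1 peak of each antibody, and the midpoints of these pairs were 114.5 bp apart at the median. The median width was 2424 bp for Jarid2 and 2007 bp for K116me2, against 1877 and 1684 bp over the whole lists.

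**Figure D2:**
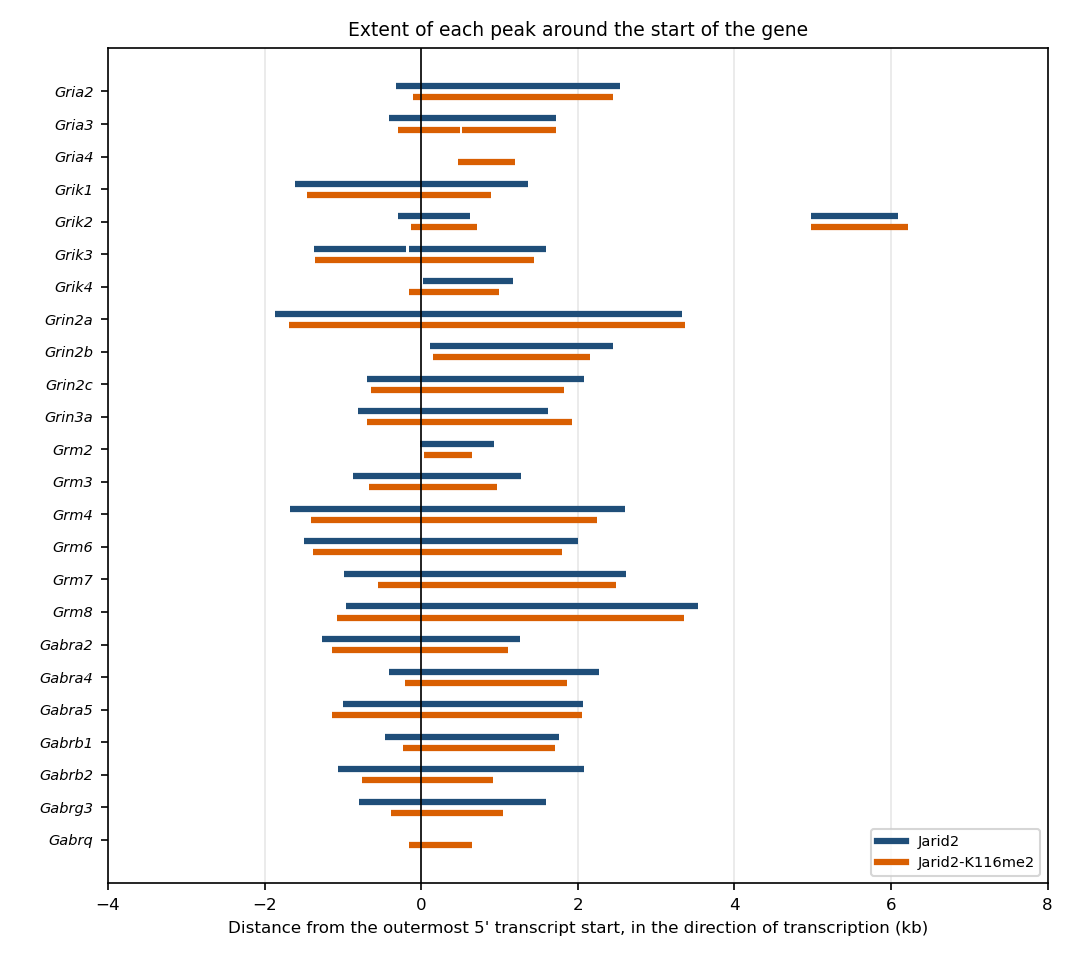
Extent of each Jarid2 (blue) and Jarid2-K116me2 (orange) peak relative to the outermost 5′ transcript start, in kb along the direction of transcription, for receptor genes with a peak, Grin1 left out. Peaks of the 2 antibodies occupy nearly the same stretch, and Grik2 shows the pair of peaks at its inner start.

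Of the 29 Jarid2 peaks at receptor genes, 26 covered an annotated start of the gene and 22 covered the outermost start. Midpoints lay downstream of the nearest start in 19 and upstream in 10, at a median distance of 246 bp, and fell in an exon in 12, in an intron in 13 and between genes in 4. Of the 31 K116me2 peaks, 29 covered a start, and midpoints lay downstream in 25. Grin2b and Gria4 had their peaks inside the gene, at internal starts beyond the outermost start.

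CpG content, which the counting rule did not use, was higher at bound than at unbound receptor genes, by medians. The CpG observed to expected ratio over 1 kb around the outermost start had a median of 0.612 in the 26 genes with a Jarid2 peak (0.362 to 0.977) and 0.270 in the 17 without (0.0904 to 0.647), and the ranges overlapped. Over all genes the medians were 0.681 with and 0.476 without a peak. At a ratio of at least 0.6, 15 of 17 receptor genes (88.2%) had a Jarid2 peak, against 23.6% of all genes at that ratio. Those 15 include Grin1, which had the highest ratio (0.977) and whose Jarid2 peak lay at the 3′ end of the gene. No Jarid2 peak lay within 5 kb of its outermost start, where the ratio was taken. Below 0.6, 11 of 26 (42.3%) had a peak, against 10.7% of all genes. Receptor genes without a peak at a high ratio were Gabrd (0.647) and Grin3b (0.613), and bound genes with low ratios included Grm3 (0.389) and Grm6 (0.390).

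**Figure D3:**
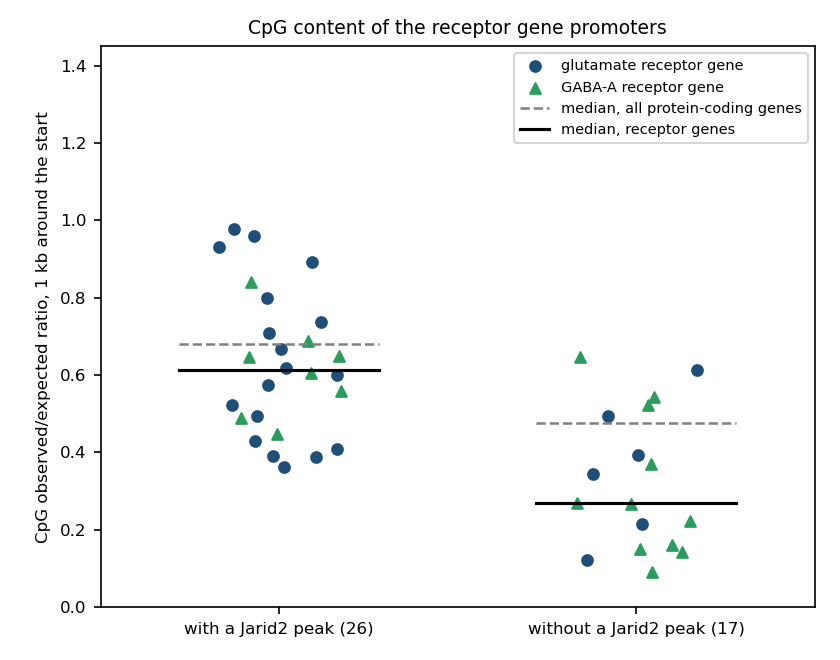
CpG observed to expected ratio of the 1 kb around the outermost start of each receptor gene (circles, glutamate; triangles, GABA-A), with and without a Jarid2 peak in E14 ESC, horizontal jitter only for display. Black bars are medians of the receptor genes, 0.612 and 0.270, and dashed bars are medians of all protein-coding genes, 0.681 and 0.476.

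REST is a repressor of neuronal genes that binds RE1 elements. The core letters CAGCACC followed after 2 bases by GGACAG were searched on both strands within 5 kb of transcript starts and were found at 3 of 43 receptor genes (6.98%), against 0.832% of all protein-coding genes. The match at Grin1 is shown as an example with 5 flanking bases on each side, core letters in capitals, read on the strand of the match. It lies 70 bp downstream of a start (chr2:25174533-25174557, minus strand), and the Jarid2 peak of Grin1 was at the other end of the gene. A match describes these letters and not a bound site.
Grin1: cgcttCAGCACCtcGGACAGcaccc

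Genes that work with these receptors were read by the same rule from lists of synaptic partners. Jarid2 peaks lay at 37 of 81 (45.7%), against 16.6% of all genes, and K116me2 peaks at 32 (39.5%), against 14.7%. A Jarid2 peak without a K116me2 peak was found at 6. The 37 included 3 of 7 for transmitter synthesis and breakdown, 8 of 13 transporters and 5 of 11 auxiliary subunits. They also included 12 of 25 postsynaptic scaffold and adhesion genes and 6 of 21 glycine and nicotinic receptor genes. Gabbr2, a GABA-B receptor subunit, Grid1, a delta receptor, and Gad1 and Gad2, which make GABA from glutamate, stood at 3100 with both antibodies.

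H3K27me3 gave a second readout of the same genes in other lines. Its value here is the percent of the bases within 5 kb of a gene's transcript starts that lay inside the H3K27me3 peaks of a library. The libraries differed widely in what was called. The replicate 1 lists of ESC held 1478 to 5183 peaks over 2.31 to 10.4 Mb, the replicate 2 lists of ESC 8579 to 9836 peaks over 22.8 to 29.2 Mb, and the EB lists 6811 to 14125 peaks, with KO EB widest at 33.6 and 55.0 Mb against 19.7 and 22.5 Mb for WT EB. In each of the 32 receptor genes with any coverage, an ESC replicate 1 library had the lowest value or shared it. Of 14 pluripotency genes, read as markers of ESC, 1 or 2 had any coverage in the ESC libraries and 3 to 7 in the EB libraries. Over all protein-coding genes the share with any coverage was 3.4 to 25.2% in the ESC libraries and 17.1 to 29.7% in the EB libraries. Of the 14 pluripotency genes, 2 (14.3%) had Jarid2 and K116me2 peaks in E14 ESC, near the 14.5% of all genes. These were Esrrb (scores of 2868 and 3073) and Prdm14 (1195 and 618).

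H3K27me3 lay at most of the receptor genes that had a Jarid2 peak in E14 ESC. At least 1 library had an H3K27me3 peak near 32 of 43 receptor genes, against 38.3% of all protein-coding genes. These were 25 of the 26 genes with a Jarid2 peak (93.8% over all genes with a Jarid2 peak) and 7 of the 17 without (27.3% over all genes without). All 3 ESC replicate 2 libraries had a peak at 26 genes, against 17.3% of all genes, and all 6 EB libraries at 23, against 12.7%. The 11 genes at 0% in all 12 libraries included Gria1, Gria3, Grik5, Grm5, Gabra3, Gabre, Gabrp and the 3 rho genes. Gria3 was the exception among bound genes, with Jarid2 peaks in E14 and no H3K27me3 in any library.

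Gabra5 and Gabra2 were the most covered receptor genes in the ESC replicate 2 libraries of WT and K116A. In the ESC replicate 2 libraries of WT, K116A and KO, Gabra5 was covered over 68.7, 78.7 and 63.8%, and Gabra2 over 74.7, 65.0 and 53.7%. Grm8 was covered over 64.5, 40.2 and 55.3%, and Grin2a over 50.03, 54.3 and 64.8%. The replicate 1 libraries were far lower at the same genes, with 0, 50.2 and 18.9% for Gabra5 and 18.4, 17.2 and 16.2% for Grm8. Gabrd, Grin2d and Grin3b were covered in 11 of 12 libraries without a Jarid2 peak within 5 kb, and Gabrd reached 48.2, 48.0 and 60.6% in the ESC replicate 2 libraries.

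**Figure D4:**
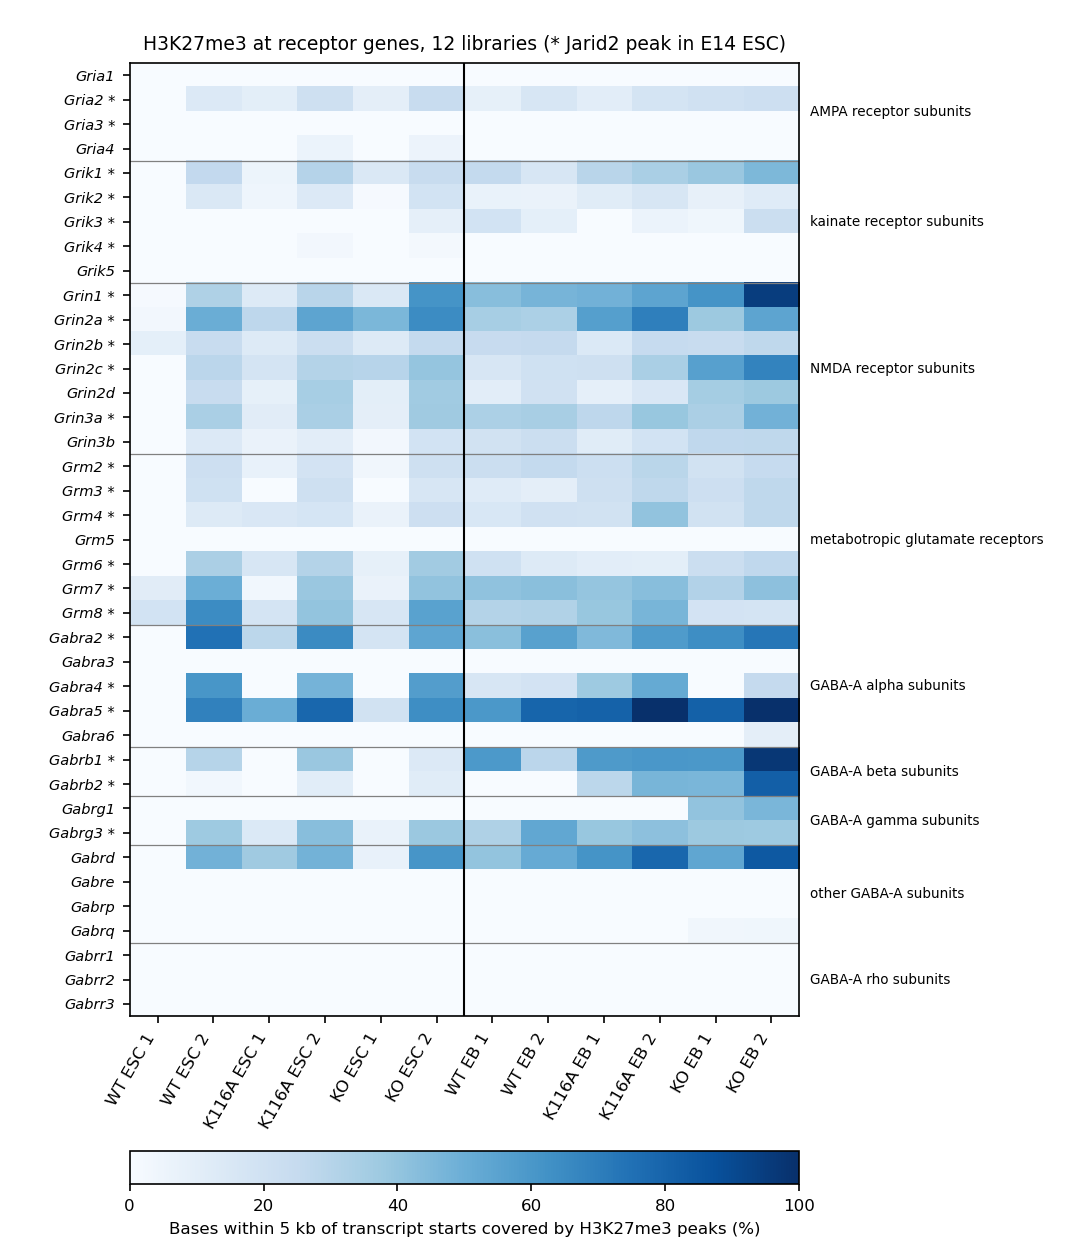
Percent of bases within 5 kb of transcript starts covered by H3K27me3 peaks for 39 of the receptor genes in 12 libraries (WT and K116A rescue and KO, replicates 1 and 2, ESC left and EB right of the black line), with asterisks for genes with a Jarid2 peak in E14 ESC. The WT ESC replicate 1 column is nearly empty, Gabra5 is dark in most columns, and Gabrg1 has a value in the 2 KO EB columns alone.

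Change on differentiation was tested as the mean of the EB groups minus the mean of the ESC groups in a limma fit over the 8573 genes with any coverage, with Benjamini-Hochberg adjustment over all of them. Coverage rose at 3 of the 32 receptor genes tested, against a background of 15.9% of tested genes, and fell at 0, against 0.257%. With libraries scaled to the same mean, the split over all genes moved from 1363 higher and 22 lower to 1460 higher and 193 lower. The median difference was 10.34 percentage points at the receptor genes and 2.90 over all tested genes, and 26 of the 32 had a positive difference. These medians shrank to 1.79 and 0.97 with libraries scaled to the same mean and to 0.71 and 1.06 without the 3 ESC replicate 1 libraries, so the receptor genes did not stand above all genes in every setting. Against replicate 2 of ESC alone, the EB mean was lower at 18 and higher at 9 receptor genes in WT, lower at 13 and higher at 16 in K116A, and lower at 15 and higher at 17 in KO.

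The 3 genes that passed in this fit were all GABA-A subunit genes. With the replicate number as a block, 10 receptor genes passed, all higher, against 24.4% of tested genes higher, and the genes added were Gabra5, Gabrd, Grin1, Grin2c, Grin3b, Grm2 and Grm4. Gabrb1 was covered over 0 and 29.9% in WT ESC, 0 and 38.3% in K116A ESC, 0 and 13.6% in KO ESC, and over 59.0 and 28.3% in WT EB, 58.9 and 59.8% in K116A EB and 59.4 and 97.2% in KO EB. The highest ESC value lay above the lowest EB value, and the difference was 46.8 ± 10.9 points (SE, limma adjusted p = 0.0306). Gabrb2 was covered over 0 and 2.9% in WT ESC, 0 and 10.6% in K116A ESC and 0 and 11.6% in KO ESC, and over 0 and 0% in WT EB, 28.1 and 46.8% in K116A EB and 46.2 and 81.8% in KO EB. The EB values of the KO and K116A lines were above every ESC value and those of WT were not, and the difference was 29.6 ± 6.76 points (limma adjusted p = 0.0283). Gabrg1 was at 0% in every library other than KO EB, where it was covered over 40.4 and 46.3%, so that its mean difference of 14.4 points came from the KO line. It entered the test through those 2 libraries alone, the group in which it is high, so its calls are counted here and below but its values are a description.

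The calls changed with the libraries used. Without the 3 ESC replicate 1 libraries, a choice made after seeing the data, Gabrb1 (33.2 points, limma adjusted p = 0.186) and Gabrb2 (25.5 points, 0.209) no longer passed, and 7 receptor genes did, 2 higher, against 8.56% of tested genes, and 5 lower, against 19.5%. The lower ones, which included Gria4, Grik4, Grm6 and Grm8, were thus no larger a share than among all genes, where most calls were then lower. Gria4 and Grik4 were covered in 2 libraries alone, replicate 2 of KO ESC (5.6 and 2.27%) and of K116A ESC (6.08 and 2.59%). All other values of these genes were 0%, so in this setting none of their groups had a measured spread. The higher ones were Gabrg1 and Gabrq, and Gabrq was covered in KO EB alone (3.44 and 3.55%). As for Gabrg1, the calls of Gria4, Grik4 and Gabrq are counted but their values are a description. Of the lower genes, Grm8 differed by -22.7 points and Grm6 by -16.2 points, with 1 library left in each ESC group. With replicates 2 alone, limma called 0 receptor genes and 0 of all genes. Leaving out 1 library at a time, Gabrb1 lost its call without replicate 1 of KO ESC, WT ESC, K116A ESC or WT EB, replicate 2 of KO EB, or either replicate of K116A EB (limma adjusted p 0.0608 to 0.0825). Gabrb2 lost its call without replicate 1 of KO ESC or WT ESC, replicate 2 of K116A EB, or either replicate of K116A ESC or WT EB (0.0575 to 0.0859).

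In EB, coverage was higher in KO than in WT at 3 receptor genes by the same fit, against a background of 11.3%. Gabrg1 differed by 43.3 points, with the values above. Gabrb2 differed by 64.0 ± 11.7 points (limma adjusted p = 0.0152), with both WT EB libraries at 0%. Grin2c was covered over 16.3 and 20.0% in WT EB and 55.9 and 68.0% in KO EB, a difference of 43.8 ± 10.2 points (limma adjusted p = 0.0371). In ESC, Grin2c was covered over 0 and 28.35% in WT and 29.3 and 39.5% in KO. Its change from ESC to EB was not called different between KO and WT (23.6 ± 14.4 points, limma adjusted p = 0.697). The broad peak at the start of Grin2c spanned 1925 and 2363 bp in WT EB and 6602 and 20230 bp in KO EB.

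The KO EB lists were also the longest, and the study states more reads for both KO EB libraries than for either WT EB library. It states the same for both K116A EB libraries. Among the ESC libraries it states the most reads for WT replicate 1, whose list was the shortest. The part of list length and read depth in the differences between KO and WT was not tested directly. With libraries scaled to the same mean Gabrg1 and Gabrb2 were still called, and Grin2c was not (20.8 points, limma adjusted p = 0.485). Both WT EB libraries of Gabrg1 and Gabrb2 were at 0%, and scaling leaves 0% at 0%. For these genes the scaled fit therefore cannot show what part the longer KO EB lists had. Both KO EB values lay above both WT EB values at 18 of the 32 receptor genes, where 44.6% of all tested genes did so, and below them at 1, against 3.95%. Gabrb2 lost its call without either WT EB replicate (limma adjusted p 0.0848 and 0.0869) or without the 3 ESC replicate 1 libraries (0.138). Grin2c lost it without any library other than WT ESC replicate 1 or 2 or KO EB replicate 1 (0.0517 to 0.186). The KO EB coverage of Gabrg1 rested on broad peaks with scores of 43.3 and 65.5, the first of which is dropped at a minimum score of 50.

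**Figure D5:**
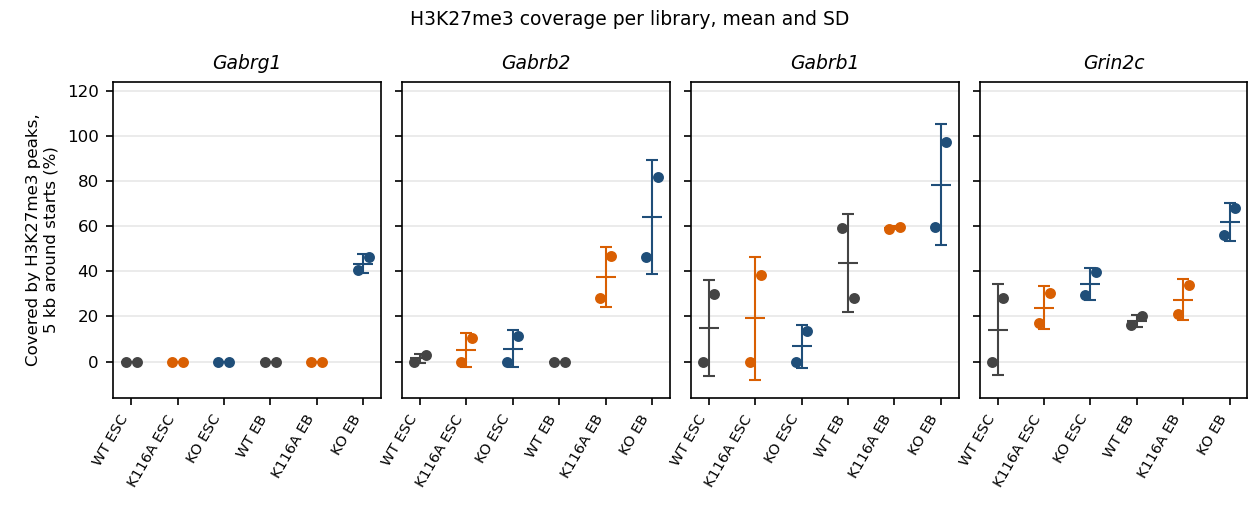
H3K27me3 coverage of Gabrg1, Gabrb2, Gabrb1 and Grin2c in each library (points, 2 per group), with the group mean (dash) and SD (bars, which can pass the limits of 0 and 100%). Gabrg1 is at 0% outside KO EB, and both WT EB points of Gabrb2 are at 0%.

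In the main fit the K116A rescue did not differ detectably from the WT rescue in EB at any receptor gene. With a window of 1 kb, 1 of 30 receptor genes was called higher in K116A, beside 81 of 5772 genes. With libraries scaled to the same mean, 1 of 32 was called higher, beside 145 of 8573 genes. The main limma fit called 0 of 32, where 0.793% of tested genes were called in either direction. An unadjusted p under 0.05 was reached by 1 receptor gene, against 8.1% of tested genes. With 2 libraries a group, a difference as large as that of Gabrb2, at 0 and 0% in WT EB and 28.1 and 46.8% in K116A EB, did not pass. Both K116A EB values lay above both WT EB values at 13 receptor genes, against 27.3% of tested genes, and below at 3, against 5.41%. The change from ESC to EB differed between K116A and WT at 0 receptor genes, against 0.117% of tested genes. At an unadjusted p under 0.05 it differed at 0, against 3.63%. Between KO and WT that change differed at 1, Gabrg1 (43.3 points), against 4.11% of tested genes higher. Among the 55 partner genes tested, coverage on differentiation rose at 4, among them Gphn, Homer1 and Chrnb3, fewer in share than the 15.9% of all tested genes, and fell at 0.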

How the data were processed

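Peak lists of 14 ChIP-seq libraries were used as deposited, and the 2 inputs among the 16 samples were not analysed here. Per the submitters' processing notes, reads were mapped to mm9 with Bowtie2 2.1.0, peaks were called with MACS 1.4.2 and MACS2 2.0.10, and HOMER 3.17 was used. The study's methods state that PCR duplicates were removed, that an input served as control, and that the second replicates of H3K27me3 were the better samples. The authors called Jarid2 and Jarid2-K116me2 peaks as narrow and H3K27me3 peaks as broad regions in each library, and the deposited score column was read as given. The scale of the broad peak score is not given in the sources used here. Read depth is not in the peak lists and the read totals stated by the study were not used in any calculation here. Coverage was therefore not adjusted for depth and intervals cover counting only.

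Positions were joined to the GENCODE annotation and genome sequence of NCBIM37. Replicates of H3K27me3 are separate biological samples per the study, and groups followed the labels. Coverage was computed per gene and library and tested with limma 3.58.1 (R 4.3.3, robust empirical Bayes, 6 group means, Benjamini-Hochberg), called at an adjusted p under 0.05, leaving out genes at 0% in all libraries. The Jarid2 and K116me2 counts have 1 library each and no test. Counts cover all 43 genes, values of some single genes are not reported here, and promoters were shown by the rule stated with them among the genes reported. The receptor genes and the partner lists were chosen with earlier results of these data known. Scripts were tested on simulated data. The alternatives changed distance, start, score, window, scaling, block and libraries. The replicates have equal numbers in every group, and these did not pair the samples across all groups, although same-numbered ESC libraries deviated together.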

Additional observations from a re-analysis of the deposited data

Results flagged for a closer look

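The change in H3K27me3 coverage of Gabrg1 from ESC to EB differed between the KO and the WT rescue lines by 43.3 percentage points in the interaction term of the limma fit. Both KO EB libraries were covered (40.4 and 46.3%) and the other 10 libraries were at 0%, so the gene entered the fit only through the group in which it is high, and its p-value is not given as support. With peaks under a score of 50 left out the term did not pass (limma adjusted p = 0.803). The cause of the difference was not tested.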

How the results depend on the processing

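Each choice was changed alone. Counts of receptor genes with a Jarid2, K116me2 or both peaks stayed within 24 to 26, 25 to 28 and 24 to 26, the score ratio and the CpG difference moved by less than the spread between genes, and the RE1 count has no alternative. Scores of at least 200 dropped Grik4 and Grm2 for Jarid2, and Gabrq, Gria4 and Grm2 for K116me2. The H3K27me3 alternative of q under 0.001 was not run because the lists give no q, and scores of at least 50 took its place. That setting, replicates 2 alone and leaving out the 3 ESC replicates 1 were chosen after seeing the data, and the cause of each change below was not tested. Leaving out the 3 ESC replicates 1 also leaves 1 library in each ESC group, so its counts do not measure variation between ESC libraries.

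For EB minus ESC, all genes called went from 1385 to 405 with a window of 1 kb, 739 at scores of at least 50, 0 with replicates 2 alone (0 receptor genes) and 2400 without the ESC replicates 1 (733 higher and 1667 lower; 7 receptor genes). For K116A minus WT in EB, receptor genes called went from 0 to 1 with 1 kb and 1 with scaled libraries, and all genes from 68 to 184 when scaled and 147 without the ESC replicates 1. For KO minus WT in EB, receptor genes went from 3 to 1 at scores of at least 50, and all genes from 978 to 224 with 1 kb, 538 at scores of at least 50 and 528 without the ESC replicates 1. For the change in K116A against WT, all genes went from 10 to 34 with 1 kb, 37 at scores of at least 50, 61 when scaled and 826 without the ESC replicates 1 (312 higher and 514 lower; 3 receptor genes). For the change in KO against WT, receptor genes went from 1 to 2 with 1 kb, 0 at scores of at least 50, 2 when scaled and 4 without the ESC replicates 1, and all genes from 355 to 94 with 1 kb and 1292 without the ESC replicates 1 (369 higher and 923 lower). Of single genes, Gabrb1 for EB minus ESC was also lost with 1 kb (limma adjusted p = 0.312) and Gabrb2 at scores of at least 50 (0.1495). For KO minus WT in EB, Grin2c was lost with 1 kb (limma adjusted p = 0.627) and Gabrb2 at scores of at least 50 (0.0708).

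Leaving out 1 library at a time, with a lone library assumed to vary like the other groups, gave 1 to 7 receptor genes and 801 to 3144 genes for EB minus ESC, 0 to 0 and 29 to 351 for K116A minus WT, 1 to 5 and 437 to 2577 for KO minus WT, 0 to 0 and 6 to 207 for the change in K116A against WT, and 1 to 4 and 151 to 2163 for the change in KO against WT. KO EB replicate 1 gave the highest count in 6 of these and K116A EB replicate 1 in 2.

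Replicate numbers did not pair the samples throughout. The correlations of deviations between same-numbered libraries were 0.691 to 0.754 for the 3 pairs within ESC, where all replicate 1 lists are thin, and 0.049 to 0.346 for the others, and 3 of 15 were at or under 0.1. With the replicate block, EB minus ESC called 10 receptor genes, all higher, and 2184 genes and the change in K116A against WT 6 genes, and no other count of calls moved by over 1.5 times. Coverage was not adjusted for depth, and no detection limit was computed.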
